A study of Mus musculus with 56 samples.

Results

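Transcripts of 7 genes by which liver makes and releases glucose (G6pc1, Slc37a4, Slc2a2, Pck1, Fbp1, Pcx and Ppargc1a) were followed in the livers of male mice with a proline (446P) or a leucine (446L) allele of Gckr, which encodes the regulatory protein GKRP. The 7 genes were picked by name for their place in the route, from 52230 genes in the summed count table. All 56 mice came from the GCKR-P446L-EMI-B6N line and had been fed for 20 weeks on a diet rich in fat and sugar (HFHSD, 45% of energy as fat, with 10% glucose and 5% fructose in the drinking water), and in each genotype a further group received the HFHSD with a glucokinase activator (GKA) at 3 mg/kg. Without GKA there were 9 mice used of 10 with genotype 446PP (PP), 8 with 446PL (PL) and 10 with 446LL (LL). With GKA there were 10 PP, 8 PL and 10 LL mice. Every group shared the diet and sex, so no comparison here is with a chow-fed or a female mouse. The allele is a knock-in that is not specific to liver. PP mouse 7, whose values are given with the other observations, entered no comparison.

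Gluconeogenesis builds glucose from lactate, alanine and glycerol when food is short. Pyruvate carboxylase (Pcx) starts the route in the mitochondrion, phosphoenolpyruvate carboxykinase (Pck1) makes phosphoenolpyruvate in the cytosol, fructose-1,6-bisphosphatase (Fbp1) reverses the step of phosphofructokinase, and the catalytic subunit of glucose-6-phosphatase (G6pc1) releases free glucose. The glucose-6-phosphate carrier Slc37a4 feeds G6pc1 inside the endoplasmic reticulum, Slc2a2 (GLUT2) is the glucose carrier of the hepatocyte plasma membrane, and Ppargc1a is a transcriptional coactivator of the route. Transcription of G6pc1 and Pck1 is lowered by insulin and raised by glucagon, and that of G6pc1 is also raised by hexose phosphates.

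All 7 genes lie on different chromosomes (11, 9, 3, 2, 13, 19 and 5 in the order above). The stretches of 250 bases before the annotated start of G6pc1, Slc2a2 and Pck1 are shown because the first 2 of these genes carry the differences described here and Pck1 is the other gene of the route best known for hormonal control. They are from the plus strand of GRCm39, at chr11:101258119-101258368, chr3:28751801-28752050 and chr2:172994591-172994840, and end at the base before the first base of transcripts G6pc1-201, Slc2a2-201 and Pck1-201. Capitals mark matches to 8 short motifs searched on both strands.
G6pc1: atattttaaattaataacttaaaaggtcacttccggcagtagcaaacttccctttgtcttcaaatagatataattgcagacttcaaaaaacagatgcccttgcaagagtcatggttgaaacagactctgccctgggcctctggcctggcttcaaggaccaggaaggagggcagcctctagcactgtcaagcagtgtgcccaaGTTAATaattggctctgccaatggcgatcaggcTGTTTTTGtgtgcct
Slc2a2: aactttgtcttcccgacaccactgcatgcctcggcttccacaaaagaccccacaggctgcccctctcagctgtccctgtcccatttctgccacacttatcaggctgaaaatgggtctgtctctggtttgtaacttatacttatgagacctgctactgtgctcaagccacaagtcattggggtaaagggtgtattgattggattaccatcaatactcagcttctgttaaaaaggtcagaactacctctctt
Pck1: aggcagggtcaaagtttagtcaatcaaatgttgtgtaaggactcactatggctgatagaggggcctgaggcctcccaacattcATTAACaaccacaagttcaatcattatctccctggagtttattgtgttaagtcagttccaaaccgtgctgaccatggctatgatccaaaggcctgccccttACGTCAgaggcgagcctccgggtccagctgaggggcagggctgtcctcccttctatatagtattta

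The G6pc1 stretch held GTTAAT, the half-site of the hepatocyte factor HNF1, from 48 to 43 bases before the start, and CAAAAACA on the minus strand, the longer form of the insulin response motif, from 15 to 8 bases before it. The Pck1 stretch held GTTAAT on the minus strand from 167 to 162 bases before the start, and ACGTCA, the half-site of the cyclic AMP response motif, from 66 to 61 bases before it. None of the 8 motifs was found in the Slc2a2 stretch, and neither CACGTG (E-box), GTAAACA (forkhead), CAAAACA (insulin response), TGTTCT (glucocorticoid half-site) nor TATAAA, the core motif bound by TBP, was found in any of the 3 stretches. Among the same 250 bases of 21770 protein-coding genes, the share with a match was 6.28% for GTTAAT, 1.65% for CAAAAACA, 6.49% for ACGTCA, 6.26% for CACGTG, 2.72% for GTAAACA, 6.13% for CAAAACA, 14.3% for TGTTCT and 11.9% for TATAAA. CAAAAACA and GTTAAT were added after the stretches had been read, and letters that match a motif do not show that a factor was bound. Nor does the lack of a match show that a promoter lacks such a site, as only these 250 bases and exact letters were searched.

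The libraries held 5.19 to 8.09 mega-reads each as estimated counts (median 6.56). The 6 hepatocyte markers (Alb, Apoa1, Ttr, Cps1, Serpina1c and Cyp2e1) summed to 78234 to 131745 CPM (counts scaled to a common library size), while the 3 kidney markers were at 0 in every mouse and the 3 muscle markers summed to at most 0.180 CPM, which bears on Pck1, Fbp1 and G6pc1 because kidney also expresses them. Counts per gene do not read the residue at position 446, so the genotype was taken from the labels. Fewer cells of a type and less RNA per cell cannot be told apart in whole liver.

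All 7 genes passed the filter on low counts in every comparison. Per kilobase of transcript, the median over the 55 mice was highest for Fbp1 (979 CPM per kb), followed by Pck1 (491), Pcx (262), Slc2a2 (140), G6pc1 (128) and Slc37a4 (90.2), and was 1.06 CPM per kb for Ppargc1a. Slc2a2 and G6pc1 stood next to each other in this order and their ranges overlapped, from 94.9 to 182 CPM per kb and from 39.0 to 358 CPM per kb. Their order differed between groups, with mean levels of 76.3 CPM per kb for G6pc1 and 144 for Slc2a2 in PL mice and 205 and 160 in LL mice, both without GKA. Ppargc1a rested on 16 to 54 reads a mouse, and the other genes on at least 474.

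The genes differed in how far mice of the same group spread. The within-group coefficient of variation was approximated by the SD of log CPM on the natural-log scale, pooled over the 6 groups. It was 43.3% for G6pc1 and 44.2% for Pck1. The other genes were at 12.4% (Slc2a2), 13.4% (Fbp1), 19.6% (Pcx), 23.3% (Ppargc1a) and 25.9% (Slc37a4). From the lowest to the highest of the 55 mice, G6pc1 spanned 9.17-fold and Pck1 9.46-fold, and Fbp1 only 1.80-fold.

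**Figure D1:**
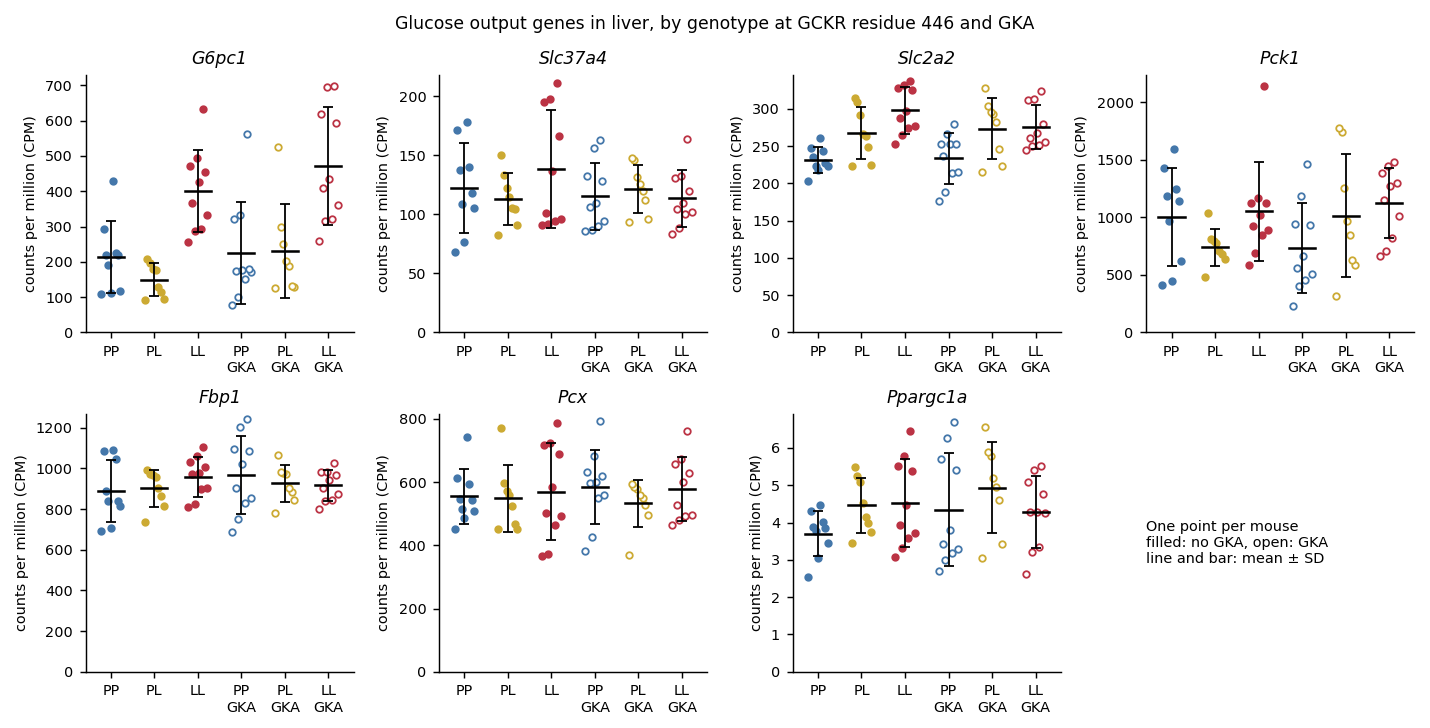
Level in CPM (y axis from 0) of each of the 7 genes in each mouse (1 point), by genotype (PP, PL, LL) without GKA (filled) and with GKA (open), with the mean and SD of each group. G6pc1 of the 10 LL mice without GKA (255 to 632 CPM) lay above that of all 8 PL mice (92.9 to 208 CPM). The groups overlapped for the other genes shown, and such separation was not counted over all genes.

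G6pc1 was highest in LL mice, with and without GKA. Without GKA it ranged from 108 to 428 CPM in PP mice (median 220), from 92.9 to 208 CPM in PL mice (median 153) and from 255 to 632 CPM in LL mice (median 396). With GKA it ranged from 76.3 to 563 CPM in PP mice (median 175), from 127 to 525 CPM in PL mice (median 194) and from 258 to 700 CPM in LL mice (median 422). In both states the lowest LL mouse lay above the median of the PP and of the PL mice, and all 10 LL mice lay above the mean of either group.

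By LL genotype relative to PL without GKA, G6pc1 rose 2.67-fold (log2 fold change 1.42, SE 0.20, adjusted p = 0.00821 with edgeR's quasi-likelihood test), from 149 ± 46.7 CPM (SD, n = 8) to 401 ± 117 CPM (SD, n = 10). The 2 groups did not overlap, and how many of all genes separated these groups in this way was not counted. G6pc1 was still called when any 1 mouse was left out, with a log2 fold change of at least 1.32. With GKA the difference between LL and PL was 1.03 (SE 0.28, adjusted p = 0.257), between 471 ± 167 CPM (SD, n = 10) and 231 ± 134 CPM (SD, n = 8), and did not pass the threshold. When all 6 groups were fitted together the LL and PL difference without GKA was 1.43 and its adjusted p was 0.107.

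Relative to PP, G6pc1 in LL mice was 1.89-fold as high without GKA (log2 fold change 0.92, SE 0.24, adjusted p = 0.112) and 2.11-fold as high with GKA (1.08, SE 0.29, adjusted p = 0.130). PP mice averaged 213 ± 102 CPM (SD, n = 9) without GKA and 224 ± 145 CPM (SD, n = 10) with it. Neither difference passed the threshold with edgeR, although 10 of 10 LL mice lay above the PP mean in each. With DESeq2 the difference without GKA passed (0.91, adjusted p = 0.0153). With GKA it passed when PP mouse 19, the highest of its group at 563 CPM, was left out (1.34, adjusted p = 0.0362).

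The position of PL mice between PP and LL was tested for G6pc1 and did not pass the threshold with edgeR. Without GKA all 8 PL mice lay below the PP mean, and the log2 difference between PL and PP was -0.51 (SE 0.26, adjusted p = 0.530), while with GKA it was 0.05 (SE 0.35, adjusted p = 0.991). Over both states the log2 difference of PL from the midpoint of PP and LL was -0.73 (SE 0.19, adjusted p = 0.0637 with edgeR, 0.0176 with DESeq2).

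Slc2a2 had its lowest group means in PP mice, by a small amount. Without GKA it ranged from 203.7 to 261 CPM in PP mice (median 227), from 223 to 315 CPM in PL mice (median 265) and from 253 to 338 CPM in LL mice (median 293). With GKA it ranged from 177 to 280 CPM in PP mice (median 245), from 216 to 328 CPM in PL mice (median 288) and from 245 to 324 CPM in LL mice (median 264). Without GKA, 9 of 10 LL mice lay above the highest PP mouse, whereas with GKA the groups overlapped and the PL median was above that of LL.

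The difference between LL and PP without GKA was 1.29-fold (log2 fold change 0.36, SE 0.07, adjusted p = 0.0507), between 298 ± 31.0 CPM (SD, n = 10) and 231 ± 17.3 CPM (SD, n = 9). It missed both the p and the fold threshold. With DESeq2 (0.36, adjusted p = 0.000197) and in 1 fit of all 6 groups (0.36, adjusted p = 0.0188) it missed the fold threshold alone, and with the clock component described below as a covariate it was 0.19 (adjusted p = 0.226). It passed both when LL mouse 42 was left out (0.38, adjusted p = 0.0218) or PP mouse 7 was kept (0.39, adjusted p = 0.0430). With GKA the difference was 0.25 (SE 0.09, adjusted p = 0.279), with group means of 276 and 234 CPM. PL relative to PP gave 0.21 (SE 0.08, adjusted p = 0.355) without GKA and 0.23 (SE 0.10, adjusted p = 0.586) with it.

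The allele dose contrast is the LL less PP difference averaged over both GKA states and divided by 2, from a fit of all 6 groups, and does not use the PL means. On the log2 scale this contrast was 0.50 (SE 0.10, adjusted p = 0.00156 with edgeR) for G6pc1 and 0.15 (SE 0.03, adjusted p = 0.00091 with edgeR) for Slc2a2, both higher in LL than in PP mice. It does not show a rise with the first allele, and for G6pc1 the PL mice were not above the PP mice without GKA. These 2 of the 7 genes were the ones called, against 3.86% of all 11477 genes tested, and at an unadjusted p below 0.05 the count was also 2, against 16.1% of all genes. The contrast used the same LL and PP mice as the pairwise comparisons.

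Genes of the circadian clock also differed by genotype in these livers. For the allele dose contrast 6 of 16 were called with edgeR, against 3.86% of all genes. DESeq2 called 9 of the 16, against 505 of 27451 genes. The first component of 16 clock genes, which held 57.3% of their variance and was signed so that Dbp counts as positive, averaged -0.60 in PP, 0.55 in PL and 0.49 in LL mice without GKA, and -0.88, 0.56 and 0.04 with GKA. Within groups, Slc2a2 correlated with this component (r = 0.62 over 55 mice, group means removed) as did Slc37a4 (0.52) and Fbp1 (0.40), and G6pc1 correlated with it negatively (-0.42). With the component in the fit, the allele dose effect on Slc2a2 was 0.08 (adjusted p = 0.126) and no longer called, while that on G6pc1 was 0.69 (adjusted p = 0.000122). In such a fit the G6pc1 difference between LL and PP was 1.04 without GKA (adjusted p = 0.161), not called, and 1.60 with GKA (adjusted p = 0.0148). The labels give no time of cull for single mice, and the part of clock state in these differences was not tested beyond this fit.

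Pck1 varied as widely as G6pc1, and no comparison of it passed the threshold. Without GKA it ranged from 413 to 1591 CPM in PP mice (median 1142), from 479 to 1040 CPM in PL mice (median 745) and from 587 to 2145 CPM in LL mice (median 969). With GKA it ranged from 227 to 1463 CPM in PP mice (median 611), from 316 to 1776 CPM in PL mice (median 908) and from 661 to 1481 CPM in LL mice (median 1213). All groups overlapped. The log2 difference between LL and PP was 0.07 (SE 0.26, adjusted p = 0.952) without GKA and 0.62 (SE 0.26, adjusted p = 0.402) with it, and that between LL and PL was 0.49 (SE 0.20, adjusted p = 0.918) and 0.15 (SE 0.27, adjusted p = 0.927).

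Slc37a4, Fbp1, Pcx and Ppargc1a were called in no comparison. Group means lay between 113 and 138 CPM for Slc37a4, between 889 and 968 CPM for Fbp1, between 532 and 584 CPM for Pcx and between 3.70 and 4.94 CPM for Ppargc1a. Their log2 fold changes over the 9 pairwise comparisons ran from -0.27 to 0.27 for Slc37a4, from -0.07 to 0.12 for Fbp1, from -0.13 to 0.12 for Pcx and from -0.21 to 0.29 for Ppargc1a. None of the 4 was called in any of the 13 comparisons with edgeR or in any of the 160 alternative fits of each gene. The smallest unadjusted p among them was 0.0501, for Ppargc1a in PL relative to PP without GKA.

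The counts over all 7 genes put these results beside the rest of the transcriptome. In LL relative to PP without GKA, 0 of 7 were called with edgeR, against 0.0854% of all genes, and 2 (G6pc1 and Slc2a2) had an unadjusted p below 0.05, against 11.8% of all genes. In PL relative to PP without GKA, 0 were called, against 0.151%, and 1 (Slc2a2) was below the unadjusted threshold, against 10.1%. In LL relative to PL without GKA, 1 was called (G6pc1, the single gene called in this comparison), against 0.00942%, and 2 (G6pc1 and Pck1) were below the unadjusted threshold, against 4.58%.

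With GKA, LL relative to PP had 0 called, against 0.239%, and 3 (G6pc1, Slc2a2 and Pck1) below the unadjusted threshold, against 10.4%. PL relative to PP had 0 called, against 0%, and 1 (Slc2a2) below the unadjusted threshold, against 8.19%. LL relative to PL had 0 called, against 0%, and 1 (G6pc1) below the unadjusted threshold, against 8.6%. For PL against the midpoint of PP and LL, 0 were called, against 0.41%, and 1 (G6pc1) was below the unadjusted threshold, against 10.5%. DESeq2 called 1 gene (G6pc1) in LL relative to PP without GKA, in LL relative to PL with and without GKA and in the midpoint comparison, and 0 in the other 3 of these pairwise comparisons. Over all genes DESeq2 called 110 of 24044 in LL relative to PP without GKA and 79 of 27451 in the midpoint comparison. In LL relative to PL it called 21 of 24040 without GKA and 30 of 23849 with GKA. Where it called 0 of the 7, DESeq2 called 87 of 24178 genes in LL relative to PP with GKA. In PL relative to PP it called 68 of 23799 without GKA and 36 of 23803 with GKA. The median log2 fold change of the 7 genes in LL relative to PP was 0.17 without GKA and -0.01 with it, beside 0.01 and 0.00 for all genes.

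**Figure D2:**
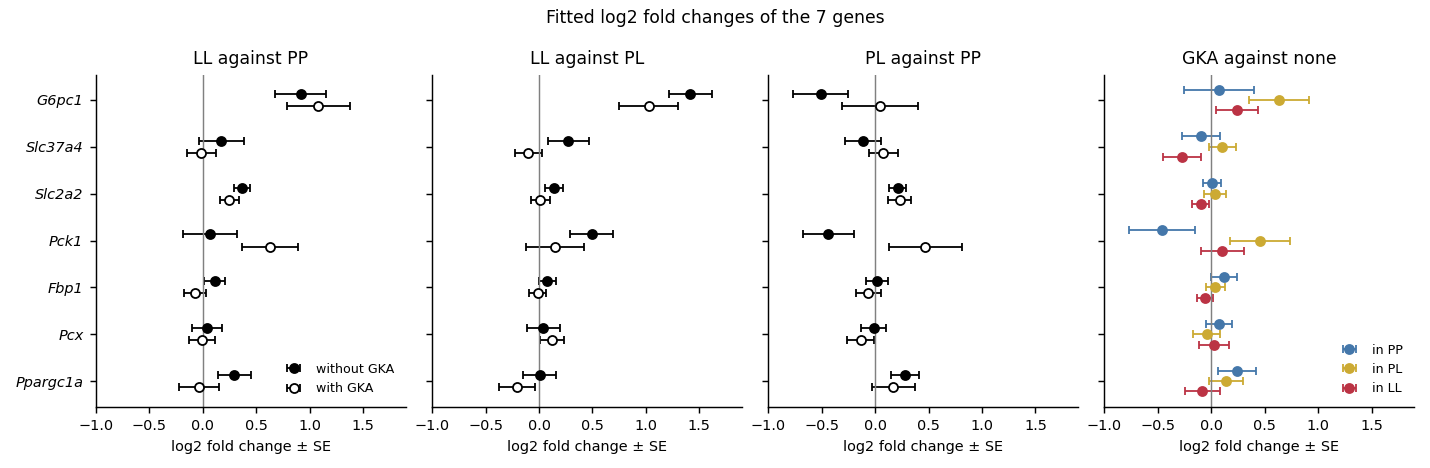
Fitted log2 fold change (x axis) with its SE for each of the 7 genes, between genotypes without GKA (filled) and with GKA (open), and for GKA against none in each genotype (colours). G6pc1 lay at 0.92 and 1.08 in LL against PP and at 1.42 and 1.03 in LL against PL, and the other genes stayed between -0.46 and 0.62.

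No difference by GKA passed the threshold for any of the 7 genes. In PP mice 0 genes of the 7 were called with edgeR, against 0% of all genes, and 0 had an unadjusted p below 0.05, against 3.56%. In PL mice 0 were called, against 0%, and 1 (G6pc1) was below the unadjusted threshold, against 3.18%. In LL mice 0 were called, against 0%, and 0 were below the unadjusted threshold, against 6.15%. Over the 3 genotypes 0 were called, against 0%, and 0 were below the unadjusted threshold, against 5.28%. DESeq2 called 0 of the 7 in each of these comparisons. Over all genes it called 2 of 23990 in PP, 3 of 23579 in PL, 11 of 24202 in LL and 8 of 27451 over the genotypes.

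The G6pc1 difference by GKA was 0.07 (SE 0.33) in PP, 0.63 (SE 0.28, adjusted p = 0.999) in PL and 0.24 (SE 0.20) in LL mice on the log2 scale. That of Pck1 was -0.46 (SE 0.31) in PP, 0.46 (SE 0.28) in PL and 0.10 (SE 0.20) in LL mice, and none of these was past the threshold. The interaction, the GKA effect in LL less that in PP, was called for 0 of the 7 genes with edgeR, against 0% of all genes. With edgeR 0 were below the unadjusted threshold, against 6.07%. DESeq2 called 0 of the 7, against 4 of 27451 genes. The interaction was 0.16 (SE 0.39) for G6pc1, 0.55 (SE 0.38) for Pck1 and -0.12 (SE 0.12) for Slc2a2.

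The ratio of G6pc1 to Pck1 was higher in LL than in PL mice. The log2 ratio of their CPM within a mouse, which does not depend on library scaling, averaged -2.24 ± 0.79 (SD) in PP, -2.35 ± 0.51 in PL and -1.36 ± 0.74 in LL mice without GKA, and -1.75 ± 1.15, -2.10 ± 0.57 and -1.28 ± 0.35 with GKA. It was higher in LL than in PL mice by 0.99 without GKA (two-sided exact permutation adjusted p = 0.0321 over the 9 pairwise comparisons) and by 0.82 with GKA (exact permutation adjusted p = 0.0185). With TPM in place of CPM the first of these was 1.01 and no longer past the threshold (exact permutation adjusted p = 0.130). Between LL and PP it differed by 0.88 without GKA (exact permutation adjusted p = 0.0751) and by 0.47 with GKA (permutation adjusted p = 0.535), neither past the threshold.

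**Figure D3:**
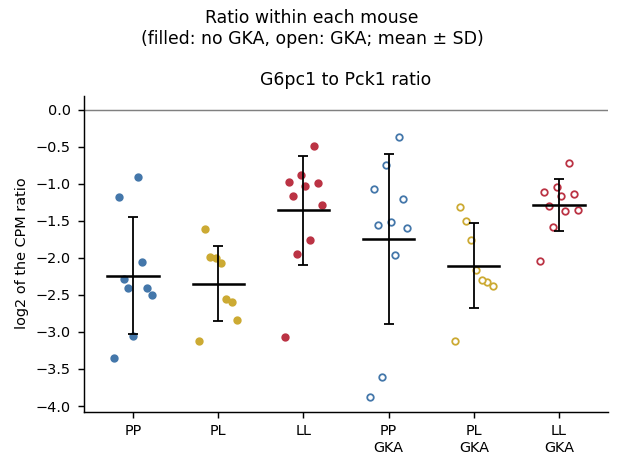
Log2 of the CPM ratio of G6pc1 to Pck1 (y axis) in each mouse (1 point), by genotype without GKA (filled) and with GKA (open), with the mean and SD of each group. The LL mice ran from -3.07 to -0.48 without GKA and from -2.04 to -0.72 with GKA, and the PL means were -2.35 and -2.10.

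None of the other enzymes and carriers of the route was called with edgeR between LL and PP mice. Of 26 such genes, 23 were tested in LL relative to PP, with or without GKA. At most 1 had an unadjusted p below 0.05 in each, beside 11.8% of all genes without GKA and 10.4% with it. Without GKA the mitochondrial dicarboxylate carrier Slc25a10 was the only 1 of the 23 with an unadjusted p below 0.05 (log2 fold change 0.48, SE 0.13, adjusted p = 0.130, 175 and 126 CPM in LL and PP mice). It was the 1 gene of the list that DESeq2 called (0.47, adjusted p = 0.0339), against 110 of 24044 genes. With GKA the alanine aminotransferase Gpt was the only one (-0.31, SE 0.12, adjusted p = 0.326), and DESeq2 called 0, against 87 of 24178 genes. The median log2 fold change of the list was 0.07 without GKA and -0.02 with GKA, beside 0.01 and 0.00 for all genes. The related genes G6pc2, Fbp2 and Pck2 had too few reads to be tested, with at most 0.180, 0.362 and 2.38 CPM in any mouse, and G6pc3, the ubiquitous glucose-6-phosphatase subunit, averaged 2.29 to 3.06 CPM in the 6 groups.

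Among 22 regulators of the route, all of which were tested, 2 were called for the allele dose contrast with edgeR and both were lower in LL mice, against 3.86% of all genes called. DESeq2 called the same 2 and Foxa2 (-0.24, adjusted p = 0.0361), against 505 of 27451 genes. With edgeR the contrast, which is the LL less PP difference divided by 2, was -0.44 (SE 0.09, adjusted p = 0.00156) for Nr0b2, the nuclear receptor SHP that represses G6pc1 and Pck1. It was -0.27 (SE 0.08, adjusted p = 0.0480 with edgeR) for Cebpb, a transcription factor of both genes. In LL relative to PP, 0 of the 22 were called with edgeR in either state. DESeq2 called 0 without GKA, against 110 of 24044 genes. With GKA it called 2, Nr0b2 (-0.97, adjusted p = 0.00494) and Cebpb (-0.75, adjusted p = 0.00430), against 87 of 24178 genes. Nr0b2 averaged 22.8 ± 10.2 CPM in LL and 39.2 ± 18.1 CPM in PP mice without GKA (-0.79, SE 0.26, adjusted p = 0.210), and 16.6 ± 4.24 and 32.6 ± 15.3 CPM with GKA (-0.97, SE 0.22, adjusted p = 0.0586). With Nr0b2, 3 of the 22 without GKA and 4 of the 22 with GKA were at an unadjusted p below 0.05, beside 11.8% and 10.4% of all genes. The others were Foxo3 (-0.29) and Creb1 (-0.23) without GKA, and Cebpb (-0.74), Foxa2 (-0.61) and Foxo3 (-0.31) with GKA, all lower in LL mice. The list as a whole was evenly split, with 11 of the 22 higher and 11 lower in LL mice without GKA (median log2 fold change -0.006). With GKA 10 were higher and 12 lower (median -0.014).

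Of 6 genes of glycolysis and its control, Gckr was the 1 called for the allele dose contrast with edgeR and with DESeq2, against 3.86% of all genes with edgeR and 505 of 27451 with DESeq2. Its contrast was -0.10 (SE 0.03, adjusted p = 0.0342 with edgeR), lower in LL than in PP mice. In LL relative to PP, 0 of the 6 were called with edgeR or DESeq2 in either state. Gckr without GKA (-0.26, SE 0.09, adjusted p = 0.238 with edgeR) and the phosphofructokinase Pfkl with GKA (-0.31, SE 0.12, adjusted p = 0.339 with edgeR) were below the unadjusted threshold alone. Of all genes, 11.8% and 10.4% were below that threshold in these comparisons. Of 9 tested fasting-induced genes, Cpt1a, the carnitine palmitoyltransferase of fatty acid oxidation, was the 1 called for the allele dose contrast with edgeR, against 3.86% of all genes. Its contrast was 0.16 (SE 0.04, adjusted p = 0.0127 with edgeR), higher in LL than in PP mice. Igfbp1 of this list stood at 15.7 CPM in LL and 29.2 CPM in PP mice with GKA (-0.89, SE 0.28, adjusted p = 0.209 with edgeR). The list as a whole was split, with 5 genes higher and 4 lower in LL than in PP mice without GKA (median log2 fold change 0.05). With GKA 4 were higher and 5 lower (median -0.01). For the allele dose contrast Igfbp1 was called with DESeq2 (-0.39, adjusted p = 0.0461), against 505 of 27451 genes. It was not called with edgeR (-0.39, adjusted p = 0.0711).

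Transcript usage of the 7 genes did not differ between LL and PP mice past the threshold in any of 12 permutation tests of the most abundant transcript's share. G6pc1 has 1 annotated transcript. Slc2a2 reads were split between the coding transcript Slc2a2-201 (53.3%), Slc2a2-202, annotated for nonsense-mediated decay (26.2%), and Slc2a2-203, which retains an intron (20.5%). Slc2a2-201 was at 53.5% ± 3.02 (SD, n = 9) in PP and 52.1% ± 5.22 (SD, n = 10) in LL mice without GKA (exact permutation adjusted p = 0.618). Pck1-201 held 94.0% of the Pck1 reads and Fbp1-201 held 96.1% of the Fbp1 reads.

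Pcx reads were split between 2 coding transcripts with separate first exons, Pcx-204 (64.2%), which starts at 4560514 on chromosome 19, and Pcx-202 (29.6%), which starts downstream at 4644374. Pcx-204 held 72.2% ± 10.3 (SD, n = 10) of the reads in LL and 59.6% ± 12.0 (SD, n = 9) in PP mice without GKA (exact permutation p = 0.0240, adjusted p = 0.288), and 60.5% ± 13.7 and 68.4% ± 12.5 with GKA, a difference of the opposite sign (permutation adjusted p = 0.571).

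The split of Slc37a4 reads between 2 coding transcripts varied widely from mouse to mouse. Slc37a4-201 held under 10% of the reads in 10 of the 55 mice (3 PP, 4 PL and 0 LL mice without GKA, and 1 PP, 0 PL and 2 LL mice with GKA), and Slc37a4-207, which starts upstream, held over 50% in 12 mice. In LL mice without GKA, Slc37a4-201 held 83.9% to 97.6% and Slc37a4-207 no reads. The summed Slc37a4 level was 105 CPM at the median in the 10 mice and 120 CPM in the other mice. The exons of Slc37a4 share 4112 bases with Trappc4 on the opposite strand, which had 37 to 122 reads a mouse, and whether the libraries keep strand was not given in the sources used here.

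**Figure D4:**
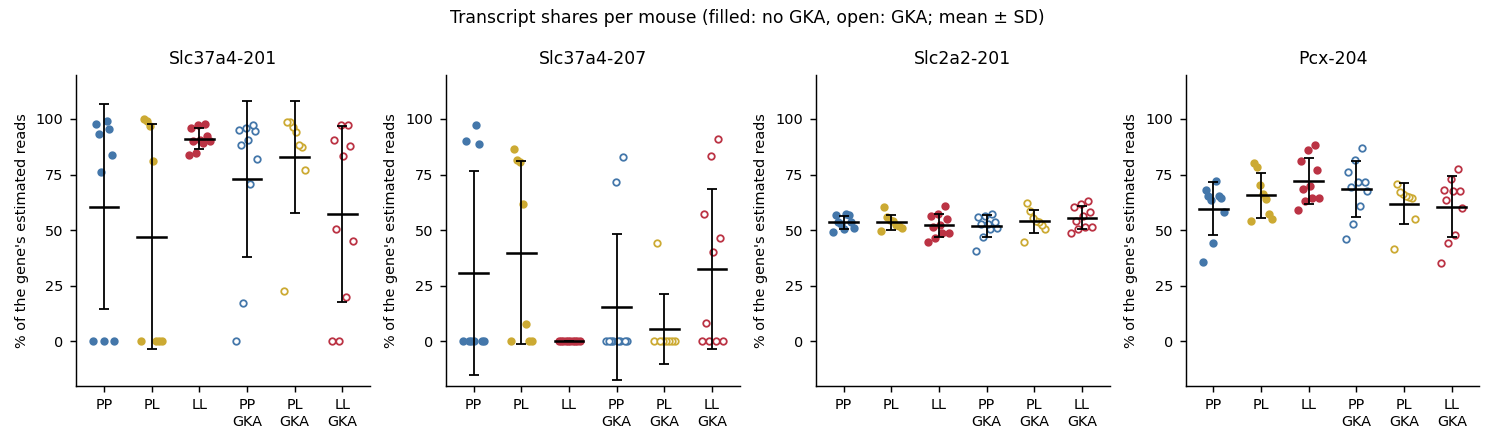
Share of the gene's estimated reads (y axis, percent) given to 4 transcripts of Slc37a4, Slc2a2 and Pcx in each mouse (1 point), by genotype without GKA (filled) and with GKA (open), with the mean and SD of each group. In LL mice without GKA Slc37a4-201 ran from 83.9% to 97.6%, while in PP mice it ran from 0% to 99.3%, and Slc2a2-201 was between 40.7% and 62.9% in all 55 mice.

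Across the 55 mice, with group means removed, 4 of 21 pairs of the 7 genes were correlated at an adjusted p below 0.05, and G6pc1 was in none of them on the log2 CPM scale. With log2 TPM 13 pairs passed, among them G6pc1 with Pck1 (r = 0.49, permutation adjusted p = 0.00189) and G6pc1 with Slc2a2, whose sign turned (r = 0.39, permutation adjusted p = 0.0111). Slc37a4 and Slc2a2, the carriers, rose and fell together (Pearson r = 0.61, permutation adjusted p = 0.00021, the smallest the permutations can give, Spearman rho = 0.63, permutation adjusted p = 0.00021), and r was 0.59 without the 2 mice farthest from the Slc37a4 median. Slc37a4 and Fbp1 gave r = 0.53 (permutation adjusted p = 0.000735) and rho = 0.48 (permutation adjusted p = 0.00535), and r = 0.50 without 2 mice. Both pairs were positive in 5 of 6 groups, with r from -0.09 to 0.88 and from -0.06 to 0.91 in single groups.

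Pck1 and its coactivator Ppargc1a gave r = 0.40 (permutation adjusted p = 0.0398) and rho = 0.42 (permutation adjusted p = 0.0271), and r = 0.41 without 2 mice. Fbp1 and Pcx gave r = 0.38 (permutation adjusted p = 0.0398) and rho = 0.38 (permutation adjusted p = 0.0278), and r = 0.40 without 2 mice. These 2 pairs were positive in 6 of 6 groups. G6pc1 and Pck1 gave r = 0.31 (permutation adjusted p = 0.175) and rho = 0.32 (permutation adjusted p = 0.103), with r = 0.20 without 2 mice, and G6pc1 and Slc2a2 gave r = -0.18 (permutation adjusted p = 0.491) and rho = -0.17 (permutation adjusted p = 0.503), with r = -0.12 without 2 mice. All of these values share the library scaling of each mouse.

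**Figure D5:**
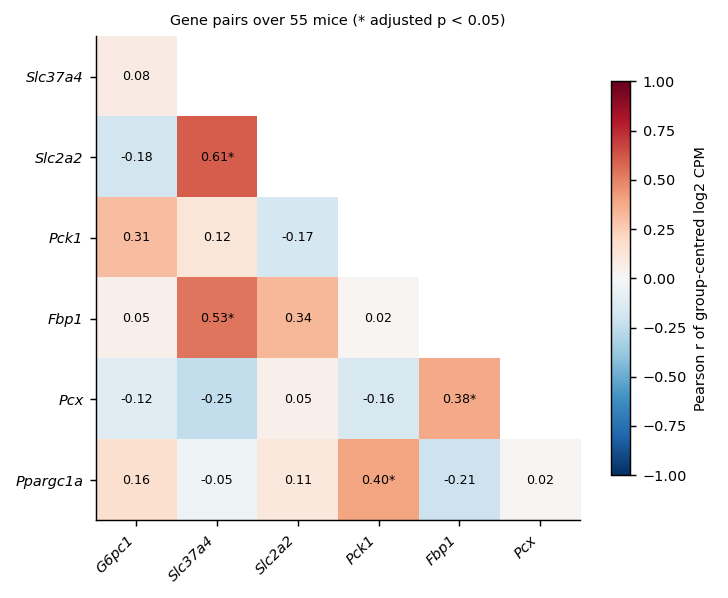
Pearson r of group-centred log2 CPM for each of the 21 pairs of the 7 genes over 55 mice (colour and number, with a star where the adjusted permutation p was below 0.05). The 4 starred pairs are Slc37a4 with Slc2a2 (0.61), Slc37a4 with Fbp1 (0.53), Pck1 with Ppargc1a (0.40) and Fbp1 with Pcx (0.38).

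The genes whose levels followed each of the 7 most closely over the 55 mice, among 10724 genes and with group means removed, were different for each. For G6pc1 they were Ppp1r10 (r = 0.73), the mitochondrial carrier Slc25a25 (0.72) and Arl4d (0.66), and for Pck1 the gluconeogenic aminotransferase gene Tat (0.73), Slc25a51 (0.72) and Pim3 (0.66). For Slc2a2 they were Echs1 (0.73), Sord (0.70) and Shpk (0.69), and for Slc37a4 Asgr1 (0.86), Txn2 (0.83) and Eif5a (0.82). For Fbp1 they included Tkfc (0.84) and the enolase gene Eno1 (0.77), for Pcx Smarca4 (0.84), Gpd1 (0.83) and Hsd17b4 (0.81), and for Ppargc1a Mdm4 (0.58), Cpeb2 (0.52) and Pfkfb2 (0.50). These correlations are descriptions, as each is the highest of many.

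Summed levels of markers of other cell types and of liver zones varied between groups, and none of the marker genes tested was called with edgeR in any comparison. The 3 blood genes (Hba-a1, Hbb-bs and Alas2) summed to 249 to 500 CPM in PP mice, 238 to 489 in PL mice and 315 to 1229 in LL mice without GKA, and to 270 to 545, 307 to 932 and 231 to 2136 CPM with GKA, with the highest value in an LL mouse in each state. The 7 markers of pericentral hepatocytes summed to 6019 ± 708, 7310 ± 1804 and 7869 ± 2059 CPM (SD) in PP, PL and LL mice without GKA, and the 7 periportal markers to 3720 ± 870, 3917 ± 680 and 4060 ± 602 CPM. With GKA the pericentral markers summed to 6319 ± 1178, 7236 ± 1691 and 7072 ± 1314 CPM, and the periportal markers to 3728 ± 873, 3889 ± 551 and 3509 ± 583 CPM, lowest in LL mice. Between LL and PP mice, 5 of the 7 periportal markers were higher in LL without GKA and 6 of 7 lower with GKA, and in neither state did any reach the unadjusted threshold. Of the 7 pericentral markers, 6 were higher in LL without GKA, with 1 past the unadjusted threshold, and 5 with GKA, with 2 past it. G6pc1 and Pck1 are known to be higher in periportal cells. The part of these cell types in the G6pc1 and Slc2a2 differences was not tested.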

How the data were processed

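Liver RNA of 56 male mice on the HFHSD was sequenced by the study. The deposited files hold, for each mouse and transcript, an estimated count, TPM and effective length that the authors made with Salmon 1.4.0 on GENCODE M26 transcripts (GRCm39), without trimming, from RNA of integrity number above 6. Whether the libraries keep strand was not given in the sources used here. Here the estimated counts were summed per gene with GENCODE M39 names (98.8% of transcripts and at least 99.8% of reads matched) and rounded to whole numbers. The deposited TPM values were used as an alternative scale alone, since single transcripts reached extreme values in some mice, and levels of different genes were compared as CPM per kilobase of mean effective length.

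Groups came from the sample titles and characteristics. PP mouse 7 was left out as in the study. Pairs of groups were compared with edgeR 4.0.16 (R 4.3.3, TMM, filterByExpr, quasi-likelihood test) on the 2 groups, and the allele dose, midpoint, GKA and interaction contrasts on all 6 groups. The allele dose is the mean over GKA states of LL less PP, divided by 2. Differences between groups were called at a Benjamini-Hochberg adjusted p below 0.05 over all genes tested, for pairs of groups with a fold of at least 1.3 or at most 0.7, the thresholds of the study. CPM used TMM factors over the 55 mice, and log2 CPM a prior count of 2. Ratios, shares and correlations were tested by two-sided permutation over mice, exact where a group had under 10 mice and otherwise with 100000 resamples, and adjusted within each family. The 16 clock genes gave a first principal component. DESeq2 1.42.0, with which the authors tested, was tried as an alternative, as were its size factors, no filter, 1 fit of all groups, a transcript length offset, protein-coding transcripts alone, the clock component as a covariate, PP mouse 7 kept, each mouse left out and, added after the results were seen, robust dispersion. The edgeR test was checked on simulated data. The labels do not say that mice were littermates or independent litters, so p-values measure the spread between these mice. No 2 libraries of a group agreed within sampling noise (236 pairs).

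The 7 genes were given by name, and the gene lists were chosen with earlier results of these data known. Named genes were the 7 genes, the list genes with a p below 0.05 in LL relative to PP or called for the allele dose, and the 3 genes most correlated with each of the 7. Some results are not reported here. Markers of macrophages, stellate cells, endothelium, bile ducts, adipose tissue and pancreas were also summed. At most 6.26 CPM of bile duct, 50.8 CPM of pancreas and 63.1 CPM of adipose markers were present in any mouse. The pancreas sum was almost all Cela1, as Cpa1 and Prss2 were at 0 and Amy2a5 reached at most 0.184 CPM. The adipose sum was almost all Cidec, as Adipoq and Lep were at 0 and Plin1 reached at most 0.232 CPM. Promoter stretches were read from the GRCm39 genome at GENCODE M39 starts.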

Additional observations from a re-analysis of the deposited data

Results flagged for a closer look

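In 42 checks (7 genes in 6 groups), 5 single mice stood apart from the rest of their group by Dixon's criterion at the 95% level, where chance would flag about 1 in 20 groups. G6pc1 was 563 CPM in mouse 19 of the PP group with GKA, with a gap to the next highest mouse of 0.471 of the whole range of its group. G6pc1 was 525 CPM in mouse 30 of the PL group with GKA, Pck1 was 2145 CPM in mouse 41 of the LL group without GKA, and Pcx was 770 CPM in mouse 22 of the PL group without GKA and 369 CPM in mouse 33 of the PL group with GKA. Without mouse 19 the G6pc1 difference between LL and PP with GKA was called (log2 fold change 1.34, adjusted p = 0.0362 with edgeR). Without mouse 41 the Pck1 difference between LL and PP without GKA was -0.11 in place of 0.07, and was past the threshold in neither. The cause of these high and low values was not tested.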

How the results depend on the processing

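Of 716 alternative values, 673 kept to the main result. For an effect this means the same direction and the same side of the threshold, and for a count of calls an equal or similar count. G6pc1 in LL relative to PL without GKA was called under each alternative except 1 fit of all 6 groups (1.43, adjusted p = 0.107, 0 genes of the 7 called). In LL relative to PP without GKA, DESeq2 called 1 (G6pc1, 0.91), PP mouse 7 kept called 1 (Slc2a2, 0.39), and leaving out each mouse gave 0 to 1 called, with Slc2a2 from 0.32 to 0.38 (called without LL mouse 42) and Pck1 from -0.11 to 0.17. In LL relative to PP with GKA, the clock covariate called 1 (G6pc1, 1.60), and leaving out each mouse gave 0 to 1 called, with G6pc1 from 0.98 to 1.34 (called without PP mouse 19). DESeq2 called 1 in LL relative to PL with GKA (G6pc1, 1.02) and 1 in the midpoint comparison (G6pc1, -0.73), and the length offset 1 in the latter (G6pc1, -0.82). For the allele dose, the length offset and the clock covariate each called 1, as Slc2a2 was 0.15 (adjusted p = 0.0714) and 0.08 (adjusted p = 0.126). The ratio of G6pc1 to Pck1 passed in 1 comparison with TPM in place of 2, as LL relative to PL without GKA was 1.01 (adjusted p = 0.130). With log2 TPM, 13 gene pairs were correlated in place of 4, G6pc1 and Pck1 at 0.49 (adjusted p = 0.00189) and G6pc1 and Slc2a2 at 0.39 (adjusted p = 0.0111) in place of -0.18, a change of sign past the threshold, and the latter at 0.11 with the clock component removed. Of the fitted values with every mouse used, those that changed sign, none past the threshold, were, with the length offset, Slc2a2 (-0.060) and Pck1 (-0.032) in LL relative to PL with GKA, Pck1 by GKA in LL (-0.27), Slc2a2 by GKA over genotypes (0.035) and the Pck1 interaction (-0.053). With the clock covariate they were Pck1 in LL relative to PL with GKA (-0.059) and by GKA in LL (-0.029), G6pc1 by GKA in PP (-0.18), Slc2a2 at the midpoint (-0.039) and by GKA over genotypes (0.011), and with coding transcripts alone Slc2a2 by GKA in PP (-0.053). The causes were not tested. Over all genes the calls in LL relative to PP ranged from 0 to 110 without GKA (main 9) and from 0 to 87 with it (main 25), in LL relative to PL from 0 to 21 without (main 1), in PL relative to PP without GKA from 0 to 68 (main 16), for the allele dose from 38 to 505 (main 443) and for the midpoint from 31 to 79 (main 47), the most under DESeq2. For comparisons with 0 calls DESeq2 gave 2 to 36. Ppargc1a, at 16 to 54 reads a mouse, and Pck1 and G6pc1, with the widest spread between mice, were measured least precisely. No paired analysis was possible because each mouse has a number of its own and no number is shared between groups.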

Other observations

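PP mouse 7, which entered no comparison, had 277 CPM of G6pc1, 70.8 CPM of Slc37a4, 191 CPM of Slc2a2, 1247 CPM of Pck1, 957 CPM of Fbp1, 530 CPM of Pcx and 5.22 CPM of Ppargc1a. Its Slc2a2 level lay below that of each of the other 9 PP mice without GKA (203.7 to 261 CPM), and its Ppargc1a level above them (2.54 to 4.47 CPM). Its G6pc1, Slc37a4, Pck1, Fbp1 and Pcx levels lay within the range of the other PP mice.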
